A study of Mus musculus with 16 samples.

Results

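Open chromatin was profiled by ATAC-seq in pancreatic islets of 8 inbred mouse strains, and the regions described here are those that 7 strains shared and exactly 1 strain lacked. ATAC-seq uses a transposase that cuts accessible DNA and leaves sequencing adapters there, so accessible regions collect reads and are called as peaks. The strains were 129 (129S1_SvImJ), AJ (A_J), B6 (C57BL/6J), CAST (CAST_EiJ), NOD (NOD_ShiLtJ), NZO (NZO_HlLtJ), PWK (PWK_PhJ) and WSB (WSB_EiJ), each with 1 female and 1 male sample of 50 islets. No treatment or engineered allele was given for any sample, and the age of the animals, the number of animals behind a sample and a batch were not given in the sources used here. CAST, PWK and WSB are wild-derived strains and the other 5 are classical laboratory strains, as the text of the study groups them.

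The regions were selected on the peak calls themselves. Overlapping peaks of the 16 sample lists on chromosomes 1 to 19 were merged into 358621 regions. A region was kept if it had a peak in exactly 14 samples and the other 2 samples were the female and the male of the same strain. This left 2557 regions, which is 0.713% of all merged regions. They are called missing regions below, with the strain that lacks them as the missing strain. Missing means that no peak passed the threshold of the authors in either sample of that strain, not that the chromatin was shown to be closed. Because presence and absence chose the regions, their number and their signal by strain are given as a description, without a test.

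Islets are clusters of endocrine cells in the pancreas, most of them insulin-secreting beta cells in the mouse. Accessible regions in them comprise promoters, at which transcription starts, and distal elements such as enhancers and insulators, whose accessibility is maintained by bound transcription factors. Distal elements are known to vary more between cell types than promoters do. The samples carried the marks of islets: of 18 islet endocrine marker genes, 16 had a peak within 3000 bases of a transcription start in all 16 samples, as did 1 of 9 acinar, 2 of 5 duct, 0 of 5 endothelial, 0 of 6 leukocyte and 2 of 4 mesenchymal genes. No gene of these lists had a missing region at its start.

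The strongest missing regions give a view of the reference sequence under a region that 7 strains shared and 1 strain lacked. For each missing strain, the strongest region was taken whose central 200 bases overlapped no annotated exon. All sequences below are from the plus strand of GRCm38, the assembly also known as mm10, as given by RefSeq, and they are the reference sequence of the B6 strain, not that of the missing strain. Capitals mark matches to any of 11 short motifs that were searched on both strands and are spelled out further on.
Fam111a window, chr19:12575201-12575400: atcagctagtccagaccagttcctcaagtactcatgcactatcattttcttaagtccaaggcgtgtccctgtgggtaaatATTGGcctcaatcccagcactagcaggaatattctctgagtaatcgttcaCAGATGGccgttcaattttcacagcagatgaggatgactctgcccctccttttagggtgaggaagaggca
Gm20535 window, chr12:21247825-21248024: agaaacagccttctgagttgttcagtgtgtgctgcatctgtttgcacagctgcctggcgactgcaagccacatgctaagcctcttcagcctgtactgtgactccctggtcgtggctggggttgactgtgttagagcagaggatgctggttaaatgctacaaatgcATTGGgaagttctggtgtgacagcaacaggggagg
Gm48429 window, chr13:68451574-68451773: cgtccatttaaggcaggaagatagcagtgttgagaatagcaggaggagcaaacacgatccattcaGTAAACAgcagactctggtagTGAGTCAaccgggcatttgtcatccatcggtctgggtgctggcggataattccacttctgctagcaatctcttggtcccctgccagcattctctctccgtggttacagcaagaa
Stc2 window, chr11:31414643-31414842: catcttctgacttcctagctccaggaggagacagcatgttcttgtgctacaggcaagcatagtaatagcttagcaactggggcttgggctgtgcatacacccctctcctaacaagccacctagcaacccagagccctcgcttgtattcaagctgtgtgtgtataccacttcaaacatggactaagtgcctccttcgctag
Gm7931 window, chr5:46347568-46347767: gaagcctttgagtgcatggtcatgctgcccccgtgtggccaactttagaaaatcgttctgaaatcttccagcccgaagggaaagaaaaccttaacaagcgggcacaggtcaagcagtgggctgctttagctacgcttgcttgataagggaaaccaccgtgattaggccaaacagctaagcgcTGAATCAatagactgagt
Gm15882 window, chr8:58463561-58463760: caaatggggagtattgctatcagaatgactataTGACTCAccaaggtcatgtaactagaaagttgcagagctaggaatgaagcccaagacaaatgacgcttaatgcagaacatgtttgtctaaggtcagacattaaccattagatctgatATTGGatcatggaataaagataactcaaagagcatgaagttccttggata
Gm11911 window, chr4:28176873-28177072: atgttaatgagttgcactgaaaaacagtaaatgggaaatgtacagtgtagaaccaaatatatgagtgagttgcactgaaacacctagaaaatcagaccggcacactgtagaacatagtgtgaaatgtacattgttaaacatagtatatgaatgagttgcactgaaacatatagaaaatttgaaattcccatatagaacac
Capg window, chr6:72538733-72538932: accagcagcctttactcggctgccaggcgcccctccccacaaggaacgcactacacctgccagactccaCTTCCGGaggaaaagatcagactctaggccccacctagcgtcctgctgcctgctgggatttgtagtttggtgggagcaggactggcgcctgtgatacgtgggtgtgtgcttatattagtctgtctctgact
In this order, the missing strains were 129, AJ, B6, CAST, NOD, NZO, PWK and WSB. The windows near Stc2 and Gm11911 held no match, the one near Capg held 1 ETS match and those near Gm7931, Gm15882 and Gm48429 each held 1 AP-1 match.

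Missing regions were spread unevenly over the strains. PWK lacked 787 of them (30.8%), AJ 630 (24.6%) and CAST 490 (19.2%), so these 3 strains accounted for 1907 regions (74.6%). The other missing strains were 129 with 183 regions, NOD with 156, NZO with 141, WSB with 104 and B6 with 66. The 3 wild-derived strains together lacked 1381 regions (54.0%).

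**Figure D1:**
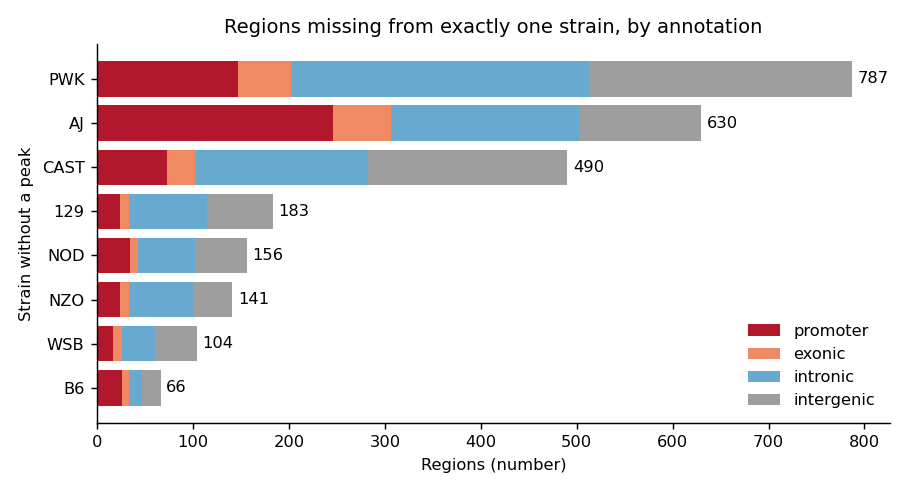
Horizontal bars give the number of regions that each strain alone lacked, divided by annotation (promoter, exonic, intronic, intergenic). PWK, AJ and CAST lead with 787, 630 and 490 regions, and the promoter segment is longest in the AJ bar with 246 of 630.

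The lists of single samples bear on these counts. Regions with a peak in 15 samples numbered 8275, and the sample that lacked the peak was the AJ male in 2468, the NZO male in 1809, the 129 female in 1181 and the PWK male in 941 of them. The number was between 19 and 345 for each of the other 12 samples. Over the 40930 regions called in all 16 samples, the median summit signal was lowest in the PWK male with 32 and highest in the CAST male with 136. It was 55 in the AJ male, 55 in the NZO male and 58 in the 129 female. The lists give no number of reads, and read numbers given elsewhere in the study were not used here. When a strain was judged by its other sample alone, the AJ male gave 3098 regions missing from AJ, the NZO male gave 1949 missing from NZO, the 129 female gave 1363 missing from 129, and the PWK male gave 1728 missing from PWK. The part of depth in the counts was not tested.

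The share of a sample's peaks that lay on a given chromosome varied as well, most widely for chromosome 11, with 1.62% of peaks in the PWK male, a median of 3.64% and 4.64% in the NZO male. Chromosome 11 held 145 missing regions (5.67%), against 2.80% of regions called in all 16 samples. Of these, 72 were missing from AJ (11.4% of the AJ regions), whose samples had 2.80% and 2.53% of their peaks there, and 60 from PWK, with 2.69% and 1.62%. Chromosome 18 held 3.55% of regions called in all 16 samples, and 51 AJ regions (8.10%) and 36 CAST regions (7.35%). The AJ samples had 2.84% and 2.80% of their peaks on it and the CAST samples 2.75% and 2.82%, against a median of 3.44%. Chromosome 19 held 25 regions missing from 129 (13.7%), against 2.38% of regions called in all 16 samples, and the 129 samples had 1.80% and 1.87% of their peaks there against a median of 2.47%. The part of peak calling by chromosome in these counts was not tested.

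Regions with a peak in exactly 14 samples numbered 6814, and the 2557 missing regions were 37.5% of them. The 8 same-strain pairs make up 6.67% of the 120 pairs of samples. A same-strain pair lacked between 66 and 787 regions with a median of 169.5, whereas the 112 pairs of different strains lacked between 0 and 486 with a median of 11.5. The pair of different strains with 486 regions was the 129 female with the NZO male, followed by the 129 female with the AJ male (366) and the AJ male with the PWK male (338).

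To read same-strain agreement, regions were chosen anew in one sex and examined in the other, whose lists had no part in that choice. The lists of both sexes had served the rule for missing regions. The test below is therefore on the agreement of lists and not on the missing regions themselves. There were 12545 regions with a peak in exactly 7 of the 8 females. The male of the strain whose female lacked the peak also lacked it in 6413 of them (51.1%), against 14.2% for a male of another strain. In the reverse direction, 13416 regions had a peak in exactly 7 males, and the female of the same strain lacked the peak in 4317 (32.2%), against 7.12% for a female of another strain. The exact permutation test over all pairings of females with males gave one-sided p = 2.48e-05 and p = 7.44e-05, and adjusted over the 6 exact tests of this report p = 0.000149 and p = 0.000223. The value 2.48e-05 is the smallest p that these pairings can give. Among pairings that fell below the same-strain one, the highest share was 51.0% for males and 32.2% for females. Read in males, no other pairing reached the same-strain share. Read in females, p lay above the smallest value, so some other pairings reached or passed it.

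The same-strain share differed widely between strains. Regions that the WSB, AJ, CAST and PWK females lacked were also lacking in the male of that strain in 80.0%, 79.0%, 69.8% and 68.5% of cases. For NZO the share was 53.4%, for B6 52.8% and for NOD 40.5%. The 3918 regions that the 129 female lacked had the lowest share, with 24.2% lacking in the 129 male. Males of 2 other strains reached or passed that share, the highest being the AJ male with 33.7%. The AJ male also lacked 59.3% of the 1890 regions chosen by the NOD female, more than the NOD male did. In males, the same-strain share ran from 12.2% of 3219 regions for NZO to 78.5% of 985 regions for CAST, and the 129 female lacked 26.5% of the regions chosen by the NZO male. These were the 3 strain and direction combinations, of 16, in which a sample of another strain reached or passed the same-strain share.

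**Figure D2:**
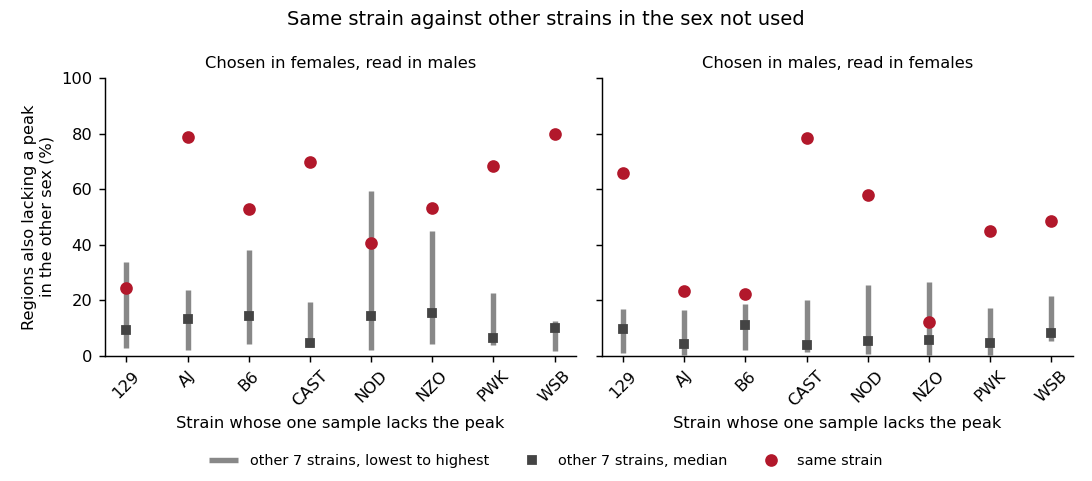
For each strain, the red point gives the percent of regions lacking a peak in its one sample that also lacked a peak in its sample of the other sex, with the range (grey line) and median (square) over the 7 samples of other strains. The red point lies above the grey line except for 129 and NOD when chosen in females (24.2% and 40.5%) and NZO when chosen in males (12.2%).

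The signal of missing regions in the strains that had them was moderate. Signal is given as scaled signal, the highest summit signal in the region divided by the median of that sample over the 40930 regions called in all 16 samples, so a value of 1 is a typical shared region. The median over regions of the mean scaled signal was 0.491 (quartiles 0.376 and 0.674), against 0.372 in the 4257 other regions called in 14 samples and 1.03 in regions called in all 16 samples. By missing strain, it was 0.338 for NZO, 0.427 for 129, 0.428 for B6, 0.446 for NOD, 0.455 for AJ, 0.524 for PWK, 0.586 for CAST and 0.660 for WSB. A mean scaled signal above 1 was found in 264 missing regions (10.3%), in 0.846% of the other regions called in 14 samples and in 51.3% of regions called in all 16. The median width was 710 bases, and 2412 regions (94.3%) were at most 2000 bases wide.

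Just outside the rule stood regions in which one of the 2 samples of the strain had a peak and all other samples did. For CAST there were 330 of these, with a median scaled signal of 0.530 in the other strains and 0.140 in the CAST sample that had the peak. WSB had 90 with 0.477 and 0.151. For AJ there were 2687, with 0.493 in the other strains and 0.354 in the AJ sample with a peak. On the other side were regions that a strain and 1 further sample lacked, of which there were 819 for AJ, 634 for PWK and 433 for CAST, with median scaled signals of 0.376, 0.374 and 0.414 in the other strains against 0.455, 0.524 and 0.586 inside the rule.

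**Figure D3:**
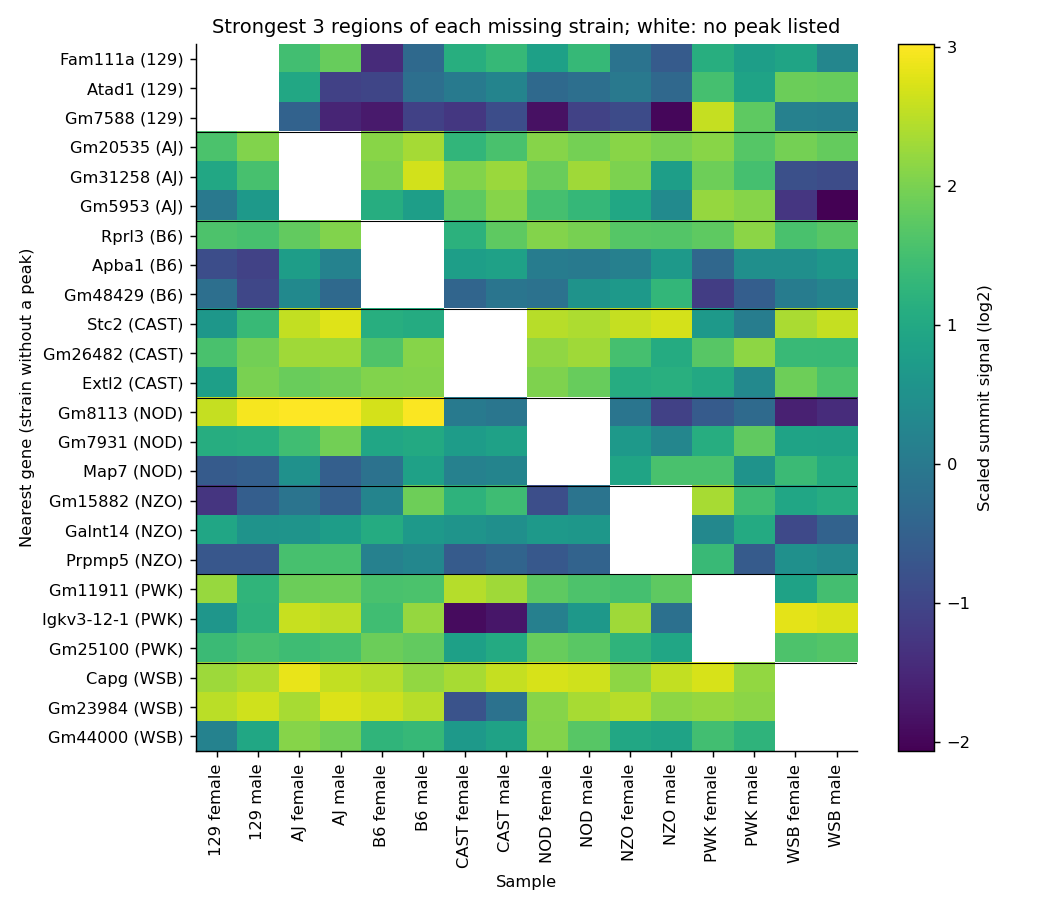
Scaled summit signal on a log2 colour scale for the strongest 3 regions of each missing strain (rows, named by the nearest gene) in the 16 samples (columns), with white where no peak was listed. Rows differ in evenness: the region near Capg lies between 4.47 and 7.20 in all 14 samples, whereas the one at Gm8113 runs from 0.330 to 8.14.

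The strongest regions of WSB, CAST and AJ stood well above a typical shared region in most strains that had them. The region chr6:72538158-72539505 missing from WSB lay 4886 bases from the start of Capg, which encodes an actin filament capping protein. Its scaled signal had a lowest value of 4.47 in the NZO female, a median of 5.68 and a highest value of 7.20 in the AJ female. All 14 samples were thus far above 1, and no peak was listed in either WSB sample. The WSB region chr1:45780339-45781999 near Gm23984 had a median of 5.11 and a lowest value of 0.585, in the CAST female. The region chr11:31414324-31416070 missing from CAST was intergenic, 44250 bases from the start of Stc2, the gene of the secreted glycoprotein stanniocalcin 2, and its values ran from 1.06 in the PWK male through a median of 5.22 to 6.82 in the AJ male. The CAST region chr3:116025463-116026201 lay in an intron near Extl2, a glycosyltransferase gene, with values from 1.25 to 4.23 and a median of 3.59. The region chr12:21247414-21248333 missing from AJ lay in an intron near Gm20535 and ranged from 2.43 in the CAST female to 5.02 in the B6 male, with a median of 3.94.

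The strongest regions of B6, PWK, NOD, NZO and 129 ranged from even to uneven. The B6 region chr8:3803119-3803354 at Rprl3, a gene for an RNA component like that of ribonuclease P, was 236 bases wide and ranged from 2.31 to 4.41 with a median of 3.31. All of its 14 values lay above 2. The B6 region chr19:23892811-23893720 overlapped an exon near Apba1, a gene for a neuronal adaptor protein, and had values from 0.478 to 1.79. The PWK region chr4:28176785-28177141, far from any gene start (109608 bases from Gm11911), had values from 1.81 to 5.48 and a median of 3.22. The PWK region chr6:70497242-70498428 at the immunoglobulin kappa variable segment Igkv3-12-1 ran from 0.264 in the CAST female to 7.04 in the WSB female, so the strains with a peak differed among themselves. The NOD region chr14:43924581-43926152 at Gm8113 had a median of 0.992 and a highest value of 8.14 in the AJ female. Values over 5 were seen there in 129, AJ and B6, and lower values in the other strains that had it. The NOD region near Map7, a gene for a microtubule-associated protein, ran from 0.655 to 2.97. The strongest NZO regions lay near Gm15882 (median 1.56), Galnt14 (1.51), a gene that starts O-linked glycosylation, and Prpmp5 (0.937). Of the 129 regions, chr19:12574877-12575902 at the promoter of Fam111a, a protease gene tied to DNA replication, ran from 0.369 in the B6 female to 3.58 in the AJ male with a median of 1.83.

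Annotation differed between missing strains. Within 3000 bases of a transcription start lay 590 of the 2557 regions (23.1%), against 36.2% of the regions called in all 16 samples, and 188 overlapped an exon, 944 an intron and 835 none of these. The promoter share was 39.4% for B6 and 39.0% for AJ, and between 13.1% (129) and 21.8% (NOD) for the other strains. The mean over strains was 16.3% ± 2.06 (SD, n = 3) for wild-derived and 26.1% ± 12.4 (SD, n = 5) for classical missing strains. The difference, wild-derived minus classical, was -9.75 percentage points, smaller in size than the spread among the classical strains, and the exact permutation test over 56 splits gave two-sided p = 0.250 (adjusted p = 0.375).

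Regions called in as many samples, but lacking 1 sample of a strain and 1 sample of another strain, served as comparators. The promoter share of missing regions was higher than that of their comparators in 7 of 8 strains, by a mean of 5.00 percentage points (SD 7.12, n = 8). The exact sign-flip permutation test over strains gave p = 0.0469, which became 0.0938 after adjustment and did not pass. AJ (39.0% against 20.2%) and B6 (39.4% against 26.7%) made up most of the mean, and the other 6 differences lay between -2.17 and 4.35 points. Of the 2228 comparators of AJ, 1967 lacked a peak in the AJ male. Outside a stretch of chromosome 13 described further on, the promoter share of B6 regions was 26.1%. Without the AJ male the mean was 2.68 points, and without regions whose sequence is repeated in the reference it was 3.11 points (p = 0.180, exact permutation test). Each comparator serves 2 strains, so the 8 differences are not fully independent.

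Base composition singled out the regions missing from AJ. Their GC content averaged 51.5% (SD 8.14 over 630 regions), whereas the other 7 missing strains ranged from 43.6% (129) to 46.3% (NOD) and the regions called in all 16 samples averaged 47.7%. CpG dinucleotides, which cluster at many promoters, occurred at 3.37 per 100 bases in the 300-base windows of AJ regions, and at 0.887 (129) to 1.81 (B6) in those of the others. By class the GC content was 45.1% ± 1.08 (SD, n = 3) for wild-derived and 46.2% ± 3.11 (SD, n = 5) for classical strains (exact permutation p = 0.732, adjusted p = 0.879). Against the comparators, the mean difference over strains was -0.09 points (SD 2.02, n = 8, exact permutation p = 0.883, adjusted p = 0.883). AJ stood 3.76 points above its comparators and B6 2.91 points below (a difference of -2.91). With regions that were missing from AJ and not repeated in the reference, the GC content was 51.9% and the promoter share 38.0%.

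**Figure D4:**
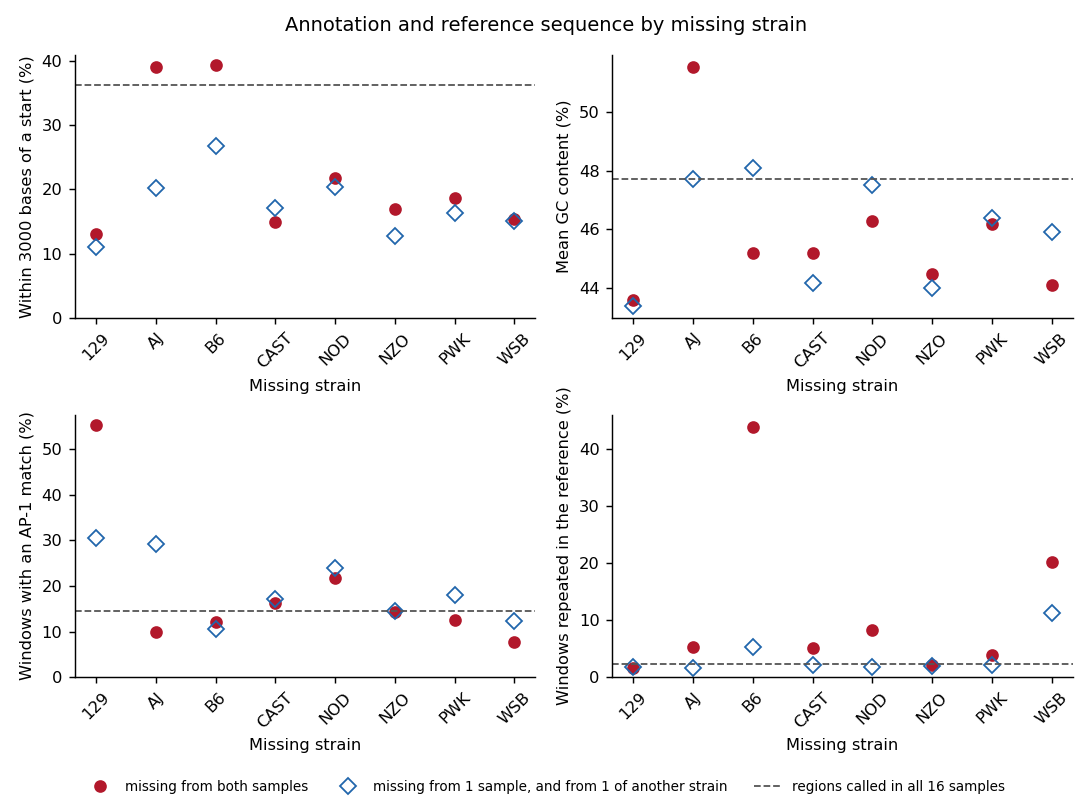
Panels give, for each missing strain, the percent of regions near a transcription start, the mean GC content, the percent of windows with an AP-1 match and the percent of windows repeated in the reference. Red points are missing regions, open diamonds are regions lacking 1 sample of that strain and 1 of another, and dashed lines are regions called in all 16 samples; AJ stands out in GC content (51.5%), 129 in AP-1 matches (55.2%) and B6 in repeated windows (43.9%).

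The 2 strongest promoter regions missing from AJ that held an SP1 match outside exons show this composition. Capitals again mark motif matches.
Cdk5r1 window, chr11:80476645-80476844: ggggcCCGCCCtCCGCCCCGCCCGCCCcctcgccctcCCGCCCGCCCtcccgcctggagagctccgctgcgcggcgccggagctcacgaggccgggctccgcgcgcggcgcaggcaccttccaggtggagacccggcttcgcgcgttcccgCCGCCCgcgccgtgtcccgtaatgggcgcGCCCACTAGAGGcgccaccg
9430091E24Rik window, chr8:111145587-111145786: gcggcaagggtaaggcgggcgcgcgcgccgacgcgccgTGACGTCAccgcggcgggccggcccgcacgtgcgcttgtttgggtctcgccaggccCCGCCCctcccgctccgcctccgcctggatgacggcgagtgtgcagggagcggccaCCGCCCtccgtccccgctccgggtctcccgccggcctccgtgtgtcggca
The Cdk5r1 region, at the gene of an activator of cyclin-dependent kinase 5 in neurons, had scaled signals from 0.488 in the NOD female to 2.00 in the NZO male, with a median of 0.884. The region at 9430091E24Rik ranged from 0.329 in the NOD male to 2.05 in the NZO male, with a median of 0.804. Neither had a peak in an AJ sample, and the SP1 letters occurred 7 times in the window at Cdk5r1 and 2 times in that at 9430091E24Rik.

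Motifs were searched as letters in a window of 300 bases centred on the stretch that most samples' peaks covered. The letters were TGANTCA for AP-1, the FOS and JUN dimer that answers to stress and growth signals, GGGCGG for SP1, CCGGAAG for ETS, TGTTTAC for FOXA, TAATTA for homeobox proteins, GTTGCC for RFX, CAGATGG for NEUROD, CCAAT for NFY, GCGCATGC for NRF1 and TGACGTCA for the CRE, and a gapped consensus was used for the insulator protein CTCF. A match is a run of letters in the reference and not a binding site. The motifs differ in length and can overlap. Over all missing regions, 411 windows (16.1%) held AP-1, against 23.0% of the other regions called in 14 samples and 14.6% of those called in all 16.

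Regions missing from 129 stood apart in AP-1. Of 183 windows, 101 (55.2%) held the letters, whereas the share in the other 7 missing strains ran from 7.69% (WSB) to 21.8% (NOD). Outside promoters the 129 share was 54.7% of 159. In regions lacking 1 sample of 129 and 1 of another strain, the share was 30.5% of 1679, with 28.3% where the lacking sample was the female and 43.3% where it was the male. The corresponding regions of AJ held AP-1 in 29.3% of 2228. The share was 7.28% of the 261 that the AJ female lacked and 32.2% of the 1967 that the AJ male lacked. The letters lay near the centre of the 129 windows, at a median of 27.5 bases from it, against 44.5 bases in the other missing regions and 49.5 bases in regions called in all 16 samples. Of the 101 windows, 19 held the letters more than once. With the window at the middle of the region instead, the share was 39.9%, and 11.9% in regions called in all 16. When 129 was judged by its female alone, 1363 regions were missing and 35.4% held AP-1; judged by its male alone, it was 50.2% of 289. The pattern was noticed in these data and, apart from a screen for outlying strains given further on, was not tested.

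Strong regions of this kind missing from 129 were the following, with the AP-1 letters (TGAGTCA or TGACTCA) in capitals.
Atad1 window, chr19:32702259-32702458: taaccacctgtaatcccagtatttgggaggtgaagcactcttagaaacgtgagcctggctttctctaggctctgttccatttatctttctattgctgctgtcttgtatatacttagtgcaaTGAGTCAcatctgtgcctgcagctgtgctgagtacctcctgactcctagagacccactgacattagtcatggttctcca
Gm7588 window, chr9:13867038-13867237: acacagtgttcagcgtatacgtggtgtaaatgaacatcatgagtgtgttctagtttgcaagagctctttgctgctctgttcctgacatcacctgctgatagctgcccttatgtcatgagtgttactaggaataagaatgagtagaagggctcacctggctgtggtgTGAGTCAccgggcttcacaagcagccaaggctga
Phactr3 window, chr2:178194480-178194679: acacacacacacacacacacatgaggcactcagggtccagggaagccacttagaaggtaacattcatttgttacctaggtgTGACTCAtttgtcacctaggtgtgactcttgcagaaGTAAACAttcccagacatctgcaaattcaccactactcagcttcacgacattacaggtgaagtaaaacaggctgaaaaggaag
The region near Atad1, a gene for an ATPase that removes misplaced proteins from the outer mitochondrial membrane, had a lowest scaled signal of 0.473 (AJ male), a median of 0.999 and a highest of 3.66 (WSB female). The region near Gm7588 ran from 0.255 in the NZO male to 5.95 in the PWK female, with a median of 0.503. The region near Phactr3, which encodes a regulator of protein phosphatase 1 and actin, ran from 0.262 in the B6 female to 2.61 in the PWK female, with a median of 0.710, and its window also held a FOXA match.

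Regions called in all 16 samples, which the rule did not choose, allow the same letters to be read in each sample. Of these, 5971 windows held AP-1 and 34959 did not. The median centred signal of the windows with AP-1 minus that of those without was -0.52 (log2) in the 129 female and -0.43 in the 129 male, and these were the 2 lowest values of the 16 samples. The AJ male followed with -0.33 and the NOD female with -0.29, and the highest values were 0.30 in the WSB male and 0.28 in the WSB female. In the screen for outlying values given further on, neither 129 value stood apart within its sex. Outside promoters, the 129 samples were at -0.20 and -0.18 and the others between -0.12 and 0.56. For SP1, the difference between the 8882 windows with the letters and the 32048 without was 0.72 in the AJ female and 0.70 in the AJ male, near the low end of a range from 0.58 (B6 male) to 1.51 (NZO male). Samples differ in signal to background, and the part of that in these differences was not tested.

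The other motifs were read in the same windows. The SP1 letters were held by 26.8% of windows missing from AJ and by 4.26% (NZO) to 13.6% (B6) of those of the other strains, against 21.7% of regions called in all 16. ETS letters reached 6.98% for AJ and at most 4.55% for the other missing strains. CTCF letters were held by 4.37% of the 129 windows and by 9.59% to 17.1% of the others.

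Many regions missing from B6 had near copies elsewhere in the reference. A window was called repeated if at least 50% of its 32-base words occurred at another place in the assembly, on either strand. Words were counted singly, so a whole read made of such words may still have a single place of origin. Of 66 B6 windows, 29 (43.9%) were repeated, as were 21 of 104 WSB windows (20.2%), 13 of 156 NOD windows (8.33%) and 1.64% to 5.24% of the windows of the other 5 missing strains. The share was 2.16% in the other regions called in 14 samples and 2.24% in regions called in all 16. Over all missing regions, 157 windows (6.14%) were repeated. The part of multiply mapping reads in these regions was not tested.

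Missing regions were mostly solitary. Counting neighbours as a run when no region with a peak in the missing strain and with at least 12 samples called lay between them, 2388 regions stood alone and 169 (6.61%) fell into 68 runs of 2 or more. The longest run, 15 regions missing from AJ, spanned chr14:43249496-43545399, or 295.9 kb, and held predicted genes such as Gm8126, Gm9732 and Gm8138. Mean scaled signal there ran from 0.271 to 0.863, and all 15 windows were repeated in the reference. Of the 82 merged regions in this span, called in any number of samples, none had a peak in an AJ sample. The strongest of the run, at Gm8126, ranged from 0.345 in the B6 female to 2.03 in the PWK male, with a median of 0.683.

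The next 3 runs were all missing from B6 and lay on chromosome 13. They held 8 regions over 599.2 kb (chr13:65995800-66595008), 7 over 78.1 kb (chr13:65450915-65528999) and 5 over 36.8 kb (chr13:65620000-65656799). Between the outer ends, a stretch of 1.14 Mb held 20 of the 66 B6 regions, of which 19 were repeated in the reference and 70.0% were within 3000 bases of a start. Predicted genes and pseudogenes of vomeronasal receptors, such as Vmn2r-ps102, lie in this stretch. The strongest of each run lay at 2410141K09Rik (0.147 in the CAST male to 1.11 in the AJ male), near Gm48165 (0.170 to 1.20) and at Gm48185 (0.0735 to 0.945). In all 3 the AJ male was highest and a CAST sample lowest. Without this stretch the promoter share of the 46 remaining B6 regions was 26.1% and 21.7% were repeated. In the spans of the runs with 7 and 5 regions, no merged region had a peak in a B6 sample, and in the longest 3 of 305 did. The fifth run, 4 regions missing from PWK over 20.9 kb at chr13:120021221-120042072, held Gm36079 and Gm21188, and all 4 windows were repeated.

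A further cluster, picked out after its values were seen, was missing from WSB. On chromosome 8, 14 of the 104 WSB regions lay between 19723008 and 20835665, all of them repeated in the reference. Outside it, 7 of 90 WSB windows (7.78%) were repeated, and the median scaled signal was 0.680 against 0.460 inside.

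The surroundings of missing regions were read in neighbouring regions that all 16 samples shared, as the centred signal of the missing strain minus the mean of the other strains. Within 1 kb of a region missing from WSB, the median difference over 15 shared regions was -1.92 (log2), and these lay by 12 missing regions on 3 chromosomes, mostly in the chromosome 8 cluster. It was -0.53 at 1 to 5 kb (43 regions), -0.13 at 25 to 100 kb and -0.07 beyond 100 kb. Near regions missing from CAST the differences were -0.65 within 1 kb (11 regions), -0.44 at 1 to 5 kb (112), -0.25 at 5 to 25 kb, -0.17 at 25 to 100 kb and -0.01 beyond. Around AJ regions the lower signal did not fade with distance up to 100 kb, with -0.37 within 1 kb, -0.41 at 1 to 5 kb, -0.42 at 5 to 25 kb and -0.37 at 25 to 100 kb (1713 regions), against 0.08 beyond 100 kb. NZO regions had a like course at a lower size, with -0.29 within 1 kb (7 regions), -0.30, -0.23 and -0.22 in the next 3 bins, and -0.03 beyond 100 kb. PWK, with the most missing regions, had -0.20 within 1 kb (30 regions), -0.09 at 1 to 5 kb (208) and -0.02 at 25 to 100 kb. These values come from the samples that the rule used and are a description, with no test.

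**Figure D5:**
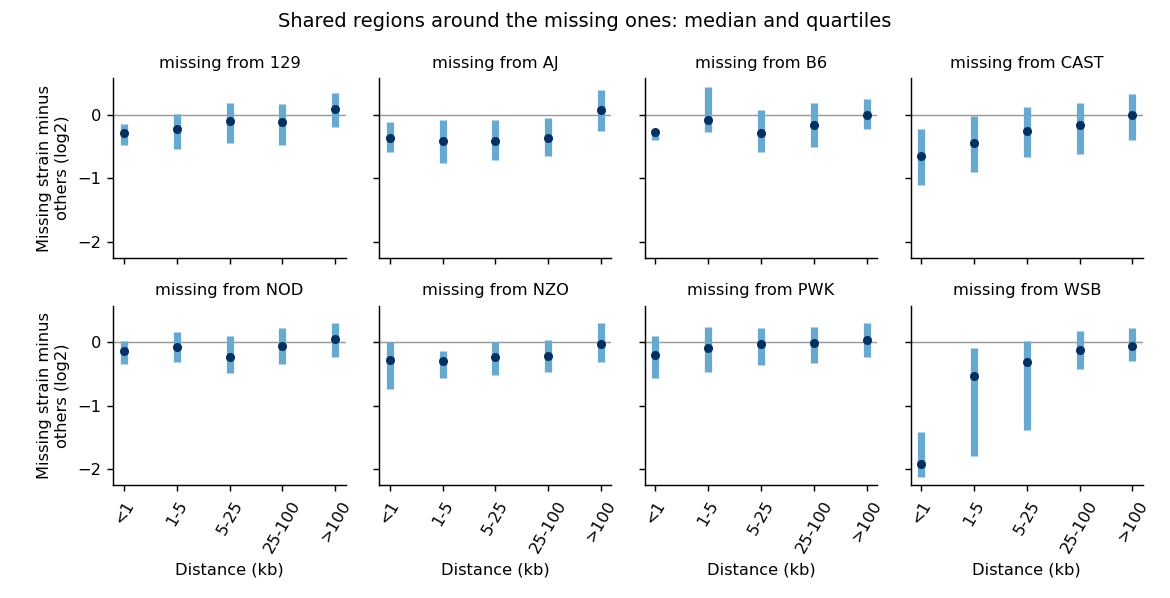
Each panel plots, for 1 missing strain, the signal of that strain minus the mean of the other strains (log2) at regions called in all 16 samples, against distance from the nearest missing region (kb), with points for medians and bars for quartiles. CAST rises from -0.65 towards -0.01 with distance, AJ stays between -0.42 and -0.37 up to 100 kb and then reaches 0.08, and the nearest WSB bin holds 15 regions at a median of -1.92.

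Missing regions were read against 13 gene lists of islet function and of other cell types. A missing region was assigned to the gene of its nearest transcription start within 50 kb, and 19 regions fell to genes of the lists. Type 2 diabetes association genes had 6 regions at 6 of 53 genes (0.235% of missing regions, against 0.232% of regions called in all 16). Islet hormones and receptors had 3 regions at 2 of 25 genes (0.117% against 0.0977%). Beta cell transcription factors had 2 at 1 of 26 genes (0.0782% against 0.0953%), and glucose sensing and stimulus secretion coupling had 1 at 33 genes (0.0391% against 0.156%). Granule biogenesis and exocytosis had 1 region at 32 genes (0.0391% against 0.198%). The circadian clock list had 2 (0.0782% against 0.0757%). The lists of mouse diabetes and obesity loci, unfolded protein response, interferon and antigen presentation, and exocrine genes had 1 each (0.0391%), against 0.0709%, 0.0904%, 0.100% and 0.0293% of regions called in all 16. No missing region fell to a gene of the alpha and delta cell, leukocyte, or endothelial and mesenchymal lists, which took 0.0538%, 0.0147% and 0.0440% of regions called in all 16. Counts of this size are too small to set a list apart from the shared regions.

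PWK was the missing strain in most of these regions near list genes, and in 30.8% of all missing regions. St18 and Ghsr had 2 of its regions each. Whether PWK differs from the other strains here was not tested. A region of 1807 bases, chr6:115332931-115334737, lay 26214 bases from Pparg, a nuclear receptor gene that controls fat cell formation and is the target of insulin-sensitising drugs. Its scaled signal ran from 0.295 in the WSB male to 3.21 in the B6 female, with a median of 1.58, and PWK had no peak. A region 16907 bases from Ghsr, the ghrelin receptor gene, chr3:27388258-27389086, ran from 0.603 to 1.25 with a median of 0.890. A second region near Ghsr was also missing from PWK, at a mean of 0.354. Regions missing from PWK also lay near St18, a zinc finger transcription factor gene (chr1:6710687-6711071, median 0.561, and chr1:6476270-6476979, median 0.398), in an intron near Kcnma1, the gene of a calcium-activated potassium channel (median 0.575), near the clock repressor gene Cry2 (median 0.504) and near Syt7, a calcium sensor of exocytosis (median 0.345). Within 82 bases of a start of Grb10, an inhibitor of insulin receptor signalling, lay a region missing from PWK with a mean of 0.330.

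Other strains lacked a few. NOD lacked a region in an intron near Glp1r, the gene of the incretin receptor GLP-1R that raises insulin secretion (chr17:30907600-30907999), with a lowest value of 0.309 (AJ male), a median of 0.515 and a highest value of 0.750 (WSB male). NOD also lacked one 3581 bases from Eif2ak3, which encodes the stress kinase PERK, with values from 0.156 to 0.654. AJ lacked regions in introns near Anks1 (0.337 to 0.818), Nfatc2 (0.276 to 1.01), a transcription factor gene that acts downstream of calcineurin, and Igf2bp2 (mean 0.367). CAST lacked one near Ifit2, an interferon-induced antiviral gene (0.133 to 0.692), and one near Cela2a, a pancreatic elastase gene (0.256 to 0.750). For 129 it was a region near Rorb (0.167 to 0.531).

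Sex was fitted with limma in a model of strain and sex over all 56019 regions called in at least 14 samples. The rule kept regions on whose presence the female and the male of every strain agreed, so a region called in 1 sex alone could not be among the missing regions, and the values below describe signal within regions so chosen. No missing region passed an adjusted p of 0.05, and neither did any of the 56019 regions (0% called). At an unadjusted p under 0.05, 139 of 2557 missing regions (5.44%) were found against 4.05% of all regions tested. The median difference of male minus female was 0.01 (log2) in both. The region with the lowest p lay near Zmynd12 and was missing from PWK, with a difference of -0.86 (SE 0.16, unadjusted p = 0.000187 by limma's moderated test, adjusted p = 1.000).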

How the data were processed

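The samples were 50 islets each, with 1 sample per strain and sex. No p-value here therefore measures the spread between samples of the same strain and sex. The exact tests rest on pairings of samples or on 1 value per strain, and the fit of sex on how the sex difference varied over strains. Adapters were trimmed (cutadapt 2.0 in the submitters' processing notes), and the authors aligned the read pairs of every strain to mm10, the genome of B6 (Bowtie2 2.3.4.1), and dropped mitochondrial and duplicate reads (Picard 2.9.2). MOSAiCS called the peaks of each sample with the false discovery rate set to 0.05. Whether read ends were shifted for the transposase is not given in the sources used here. Whether reads of other strains mapped less well at missing regions cannot be told from the lists. Each deposited list holds, per peak, a summit signal in whole numbers that was not scaled to depth, a mean signal and a −log10 p-value from the authors' caller. The mean signal served in 1 alternative fit of sex, and the −log10 p-value ranked peaks in alternatives. Deposited lists per strain were not used here.

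Peaks of chromosomes 1 to 19 were merged where they overlapped by at least 1 base, and the signal of a sample in a region was its highest summit. Places came from GENCODE M21 for GRCm38, in the order promoter (within 3000 bases of a transcription start), exonic, intronic and intergenic. Words of 32 bases were counted over the chromosomes and the unplaced and unlocalised sequences of the RefSeq assembly. Sex was fitted with limma 3.58.1 on log2(summit signal + 1), centred on each sample's median over regions called in all 16 samples, with strain as a term and uncalled samples as missing values. P-values were adjusted by Benjamini-Hochberg over all regions tested. On simulated data the fit recovered 200 of 200 regions changed by 1.5 (log2), with 4 false calls among 56019. All changed regions were among those called in all 16 samples, and the noise was set rather than taken from the data. Recovery at missing regions was therefore not examined. The 6 other tests were exact, one-sided for the pairings and two-sided otherwise, with a smallest p of 0.0179 for the 56 splits and 0.00781 for the 256 sign flips.

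Regions were named by rule: the 3 strongest of at most 2000 bases per missing strain, the 2 strongest per gene list, the 5 longest runs and any called for sex. Further regions near list genes, the region with the lowest p for sex, the chromosome 8 cluster and the regions printed for AP-1 or SP1 letters were picked once their values were known. The missing regions, gene lists, motifs and markers were chosen with earlier results of these data known. Alternatives were touching merges, stricter or equal numbers of peaks, a cover of 50% of a region, narrow regions, other promoter and GC windows, other comparators, other settings of the fit of sex, and each sample or strain left out.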

Additional observations from a re-analysis of the deposited data

Results flagged for a closer look

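In 13 sets of values, the highest and the lowest of 8 females, 8 males or 8 missing strains were compared with the rest by Dixon's criterion. Chance passes this criterion in about 1 of 20 groups, and 6 values stood apart. Counts of regions that 1 sample alone lacked come from the same peak calls as the rule, at other regions. The 129 female alone lacked the peak in 1181 regions called in the 15 other samples, the next female being PWK with 345. Among males the counts were higher for AJ (2468) and NZO (1809), and neither passed the criterion. The GC content of regions missing from AJ was 51.5%, the next strain being NOD with 46.3%. Their CpG density was 3.37 per 100 bases, with B6 next at 1.81, and 26.8% of their windows held SP1 letters, with B6 next at 13.6%. These 3 values of AJ describe the same base composition. Windows repeated in the reference made up 43.9% of the regions missing from B6, with WSB next at 20.2%. Of these B6 windows, 19 lay in the chromosome 13 stretch. Outside that stretch 21.7% of B6 windows were repeated, and outside the chromosome 8 cluster 7.78% of WSB windows. AP-1 letters were held by 55.2% of the windows missing from 129, with NOD next at 21.8%. That share was noticed in these same data, so its flag is a description and not a test.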

How the results depend on the processing

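The number of missing regions was 2557. It was 593 if a sample had to cover 50% of a region, and between 2620 and 5113 with a sample left out, the values over 1.5 times the reported one being 3845 without the 129 male, 5113 without the AJ female and 4420 without the NZO female. It moved by less than 1.5 times in the other 17 of 21 alternatives. PWK lacked the most regions in 18 of the 21 alternatives; 129, AJ and NZO led when judged by the 129 female, the AJ male or the NZO male alone. With equal numbers of peaks per sample, PWK lacked 738 regions, CAST 700, AJ 232 and WSB 189. With a cover of 50%, PWK lacked 302 and AJ 151, whereas CAST lacked 38, close to NZO with 37 and 129 with 35. The promoter share against comparators was 5.00 points and lost its unadjusted call in 16 of 24 alternatives, among them stricter peaks (4.41 points), a cover of 50% (7.62), narrow regions (3.53), promoters within 1000 bases (4.40) and without repeated windows (3.11, chosen after seeing the data). With samples left out it lay between 2.68 and 5.66, with p between 0.00781 and 0.344 by the exact permutation test. Against regions called in all 16 samples it reversed to -13.83 points. The causes were not tested. Both class comparisons and the GC comparison stayed above 0.05 in every alternative run, and both same-strain shares kept p at or below 0.00062 in all 13 alternatives each, with 49.9% to 62.9% and 31.6% to 40.9% when a strain was left out. No missing region was called for sex in any of 21 alternatives. The AP-1 share in 129 regions lay between 35.4% and 68.2% in 22 alternatives chosen after seeing the data. The fit of sex was paired by strain, since each strain had 1 female and 1 male and strain was a term. In a shallow list, a missing peak cannot be told from a closed region, and the part of depth in the absences was not tested.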

Other observations

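Masked repeats in the reference, which the annotation marks in lower case, covered 28.3% of the bases of regions missing from B6 and 22.8% of those missing from WSB. For the other 6 missing strains the share was between 12.1% (AJ) and 17.7% (NOD), and it was 13.7% in regions called in all 16 samples. Without repeated windows, it was 15.7% for B6 and 17.0% for WSB.

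Motifs of factors that act in islet cells showed small differences. NEUROD letters were held by 11.5% of windows of missing regions, against 10.6% in the other regions called in 14 samples and 9.68% in those called in all 16. FOXA letters were held by 8.64%, 9.18% and 7.74%, and homeobox letters by 9.27%, 12.1% and 8.61%. By chromosome, missing regions of B6, WSB and AJ were most numerous on chromosome 13 with 23 of 66 (34.8%), chromosome 8 with 16 of 104 (15.4%) and chromosome 2 with 81 of 630 (12.9%), against 4.92%, 5.64% and 7.69% of regions called in all 16 samples.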
